A study of Homo sapiens with 12 samples.

Results

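At 972 protein-coding genes, the transcription start site lay under an H3K4me2 peak in the lists from vehicle-treated and ATRA-treated U-937 cells and under no peak in either list from Corin-treated cells, although both Corin lists still had a peak within 1 kb. Each gene entered with the start site of its GENCODE canonical transcript, on the GRCh38 build, and 19951 such start sites were examined. Of these, 8636 could have shown the pattern, because they lay under a DMSO and an ATRA peak and had a peak of both Corin lists within 1 kb, and 11.3% of them did. The count depends on how far a Corin-list peak must stay away: with 50 bp kept clear it was 245 (2.84%), and with peaks within 200 bp joined it was 744 (7.38%). The start sites were chosen by the presence and absence of peaks in these 4 lists. Presence, absence and everything that follows from them are therefore description, and no test was applied to them.

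Dimethylation of lysine 4 on histone H3 (H3K4me2) marks promoters and enhancers. It is written by the KMT2 and SETD1 methyltransferase complexes and removed by demethylases that include LSD1, the catalytic subunit of the CoREST complex, which also carries histone deacetylases. At an active promoter the start site usually sits in a stretch with few or no nucleosomes, and the marked nucleosomes lie on both sides of it. A peak list shows such a stretch as a gap only where the signal falls low enough to part the peaks.

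U-937 is an established human cell line of monocytic character, named in the labels as AML cells. The treatments lasted 24 hours and were vehicle (DMSO), 0.1 µM of all-trans retinoic acid (ATRA, the ligand of the retinoic acid receptors), 0.1 µM of Corin, and both compounds combined at that concentration. Corin is a synthetic compound that inhibits both LSD1 and the deacetylases of the CoREST complex. Chromatin immunoprecipitation gave 8 H3K4me2 libraries, 2 for each of the 4 treatments, and there were 4 input libraries, 1 for each treatment. All of them come from 1 cell line with no genetic change named in the labels. The values used are 1 peak list per treatment, called on pooled libraries, so the spread between replicates is not known, no p-value can be given, and depth per library is not shown by the lists. Intervals are 95% intervals that cover counting error over start sites only (Wilson for shares, order statistics for medians).

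The lists held 65172 (DMSO), 66385 (ATRA), 73997 (Corin) and 83969 (ATRA+Corin) peaks. They covered 47.3%, 48.1%, 38.04% and 38.03% of the 19951 start sites in the same order, so the Corin lists had more peaks and fewer covered start sites. No list parted peaks by less than 102 bp, and a narrower gap could not be seen in any of them. Of 12 haematopoietic and monocytic marker genes, 11 had a DMSO peak within 1 kb of the start site, among them PTPRC, SPI1, CD33, LYZ and CSF1R; MPO had none. A DMSO peak was also found at the B cell marker CD79A and at 1 of 4 erythroid markers (KLF1), and at 0 of 3 T cell, 0 of 4 epithelial and 0 of 3 hepatocyte markers.

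The bases left bare in both Corin lists can be read directly. The 6 sequences below are the part of the gap shared by both Corin lists that lies upstream of the start site, read from the GRCh38 reference in the direction of the gene up to the last base before the start. TCFL5 and SSBP3 are shown as genes whose covering DMSO peak was among the 8 strongest, PCBP2 and GTSF1 for their wide gaps, SEC13 for its narrow gap and RPL39 as a ribosomal protein gene. Capitals mark matches, on either strand, to GGGCGG (the GC box bound by SP and KLF factors), CCAAT (the box bound by NF-Y), CCGGAA (bound by ETS factors) and TGACGTCA (the cyclic AMP response element); the last has no match in these 6. None of these stretches overlaps an annotated exon. At SSBP3, GTSF1, SEC13 and RPL39 the whole stretch was under a DMSO and an ATRA peak, whereas at TCFL5 and PCBP2 most of it was bare in those lists too.
TCFL5, chr20:62861823-62861994, reverse strand: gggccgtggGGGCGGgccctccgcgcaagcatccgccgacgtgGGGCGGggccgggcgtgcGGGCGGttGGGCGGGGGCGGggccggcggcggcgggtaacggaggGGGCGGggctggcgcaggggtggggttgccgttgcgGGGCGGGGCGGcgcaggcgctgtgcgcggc
SSBP3, chr1:54406395-54406520, reverse strand: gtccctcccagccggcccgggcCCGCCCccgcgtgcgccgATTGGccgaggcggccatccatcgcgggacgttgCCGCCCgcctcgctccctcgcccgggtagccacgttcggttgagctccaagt
PCBP2, chr12:53451871-53452101, forward strand: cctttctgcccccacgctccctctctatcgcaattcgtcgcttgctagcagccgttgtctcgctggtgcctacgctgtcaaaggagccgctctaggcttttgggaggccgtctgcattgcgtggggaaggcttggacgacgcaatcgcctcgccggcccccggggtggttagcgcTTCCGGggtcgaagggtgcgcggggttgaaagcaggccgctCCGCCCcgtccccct
GTSF1, chr12:54473603-54473665, reverse strand: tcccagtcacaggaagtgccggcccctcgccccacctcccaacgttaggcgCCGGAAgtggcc
SEC13, chr3:10321113-10321202, reverse strand: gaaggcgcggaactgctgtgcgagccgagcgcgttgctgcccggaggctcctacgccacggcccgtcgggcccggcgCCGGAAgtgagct
RPL39, chrX:119791631-119791722, reverse strand: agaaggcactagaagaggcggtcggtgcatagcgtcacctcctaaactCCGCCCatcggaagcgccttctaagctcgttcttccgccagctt

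These stretches differ in what they hold. The TCFL5 stretch carries 8 GC boxes within 172 bases, and the SSBP3 stretch a CCAAT box between 2 GC boxes. In GTSF1 and SEC13 a single CCGGAA lies close to the start site, and in PCBP2 it lies farther upstream. RPL39 holds 1 GC box and none of the other 9 motifs searched. A match is a description of the letters and not a bound site.

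The gaps were narrow and framed by peaks. In the Corin list 948 of the 972 start sites (97.5%, 96.4 to 98.3) had a peak within 1 kb on both sides, and in the ATRA+Corin list 954 did (98.1%, 97.1 to 98.8). A peak on the downstream side alone was found at 20 and 14 start sites, and on the upstream side alone at 4 in each list. The uncovered run between the flanking peaks had a median width of 207 bp in the Corin list (199 to 215, n = 948) and of 204.5 bp with both compounds (199 to 212, n = 954). In the Corin list 22.4% of gaps were at most 150 bp wide, 47.6% at most 200 bp, 74.5% at most 300 bp and 94.4% at most 500 bp. The corresponding shares in the ATRA+Corin list were 22.4%, 47.5%, 73.2% and 92.5%. The narrowest gap, at 102 bp, was the smallest that the lists can show.

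The gap did not sit evenly on the start site. The upstream peak ended a median 147.5 bp before the start site (Corin) and 145 bp before it (ATRA+Corin), and the downstream peak began 44 and 47 bp after it. The upstream edge was the nearer of both in 18.8% of the gaps in the Corin list (16.4 to 21.4) and in 22.01% in the ATRA+Corin list (19.5 to 24.8). So most of the uncovered bases lay upstream of the start site, and a short stretch of the transcribed region was uncovered too. The nearest peak edge lay within 10 bp of the start site at 120 (Corin) and 115 (ATRA+Corin) of the 972 genes, and within 50 bp at 588 (60.5%) and 570 (58.6%).

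**Figure D1:**
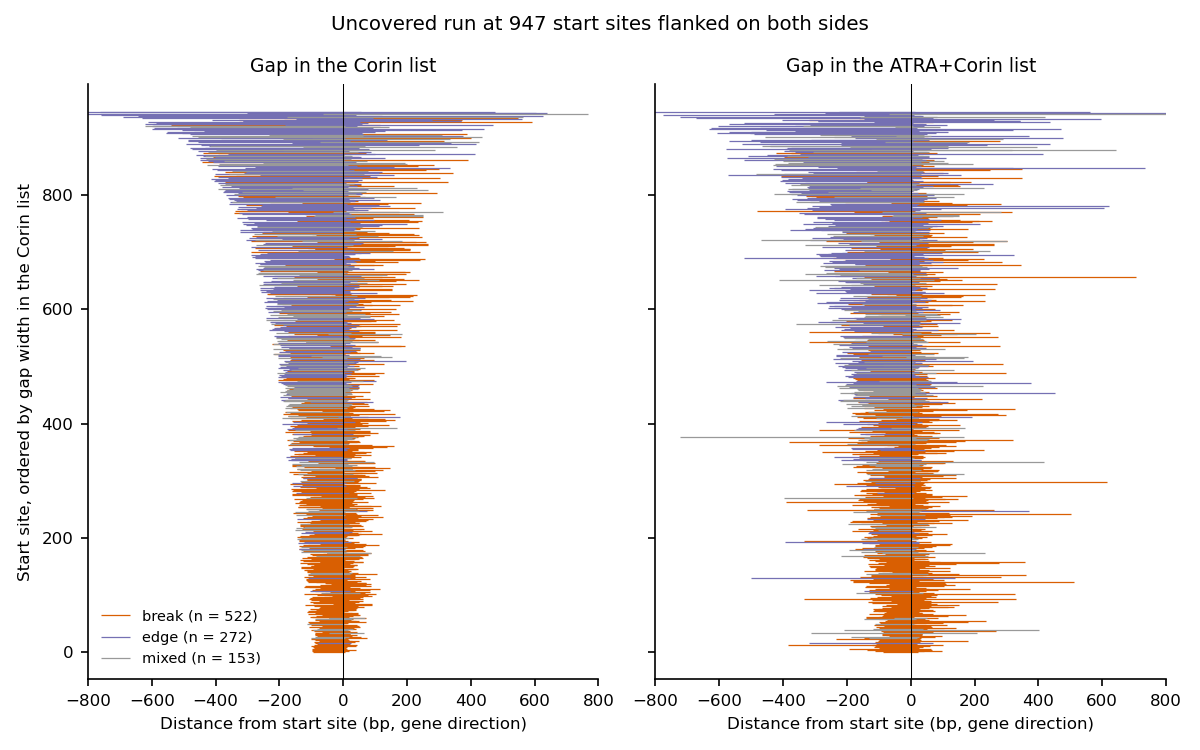
Uncovered run around each of the 947 start sites that had peaks on both sides in both Corin lists; each horizontal line spans the gap in bp along the direction of the gene (0 is the start site, lines are cut at 800 bp on each side), and start sites are ordered by gap width in the Corin list in both panels. Colours give the cover in the lists without Corin (break: DMSO and ATRA peaks reached past both edges of both gaps, edge: neither did, mixed: the rest). Most lines extend farther to the upstream side. Edge cases have a median width of 296.5 bp and breaks of 170.5 bp in the Corin list, a difference that the definition partly fixes.

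Forms of loss could be told from where the DMSO and ATRA peaks ended, among the 947 start sites flanked on both sides in both Corin lists. At 522 (55.1%, 51.9 to 58.3) the DMSO and the ATRA peak both ran past both edges of both gaps, so an unbroken peak was parted at the start site (a break). At 272 (28.7%, 25.9 to 31.7) neither peak did, and the start site lay near the end of its DMSO and ATRA peaks (an edge). The other 153 (16.2%, 13.9 to 18.6) were mixed. The gaps of breaks were 170.5 bp wide in the Corin list (165 to 176) and 171 bp wide with both compounds (165 to 179). Those of edges were 296.5 bp (281 to 333) and 303 bp (284 to 332), and mixed cases lay between, at 222 and 225 bp. A wide gap is less likely to meet the definition of a break, so the definition itself sets part of this order.

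In the edge cases the start site was close to a gap in the lists without Corin too. The covering DMSO peak ended a median 25 bp from the start site (21 to 30), on its upstream side in 262 of 272, and the next DMSO peak left a gap of 194.5 bp (181 to 208). The peak edge lay 61 bp (53 to 71) farther on in the Corin list and 64.5 bp (59 to 72) farther in the ATRA+Corin list. The gap in these lists thus took in the start site, as the rule requires. The direction of the shift was fixed by the rule, and only its size is described here. The shift was at most 50 bp at 104 of the 272 in the Corin list (38.2%) and at 99 in the ATRA+Corin list (36.4%). The DMSO peak over the start site was narrower in edges (median 1852.5 bp) than in breaks (3005 bp), as a peak that ends at the start site covers the downstream side alone.

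**Figure D2:**
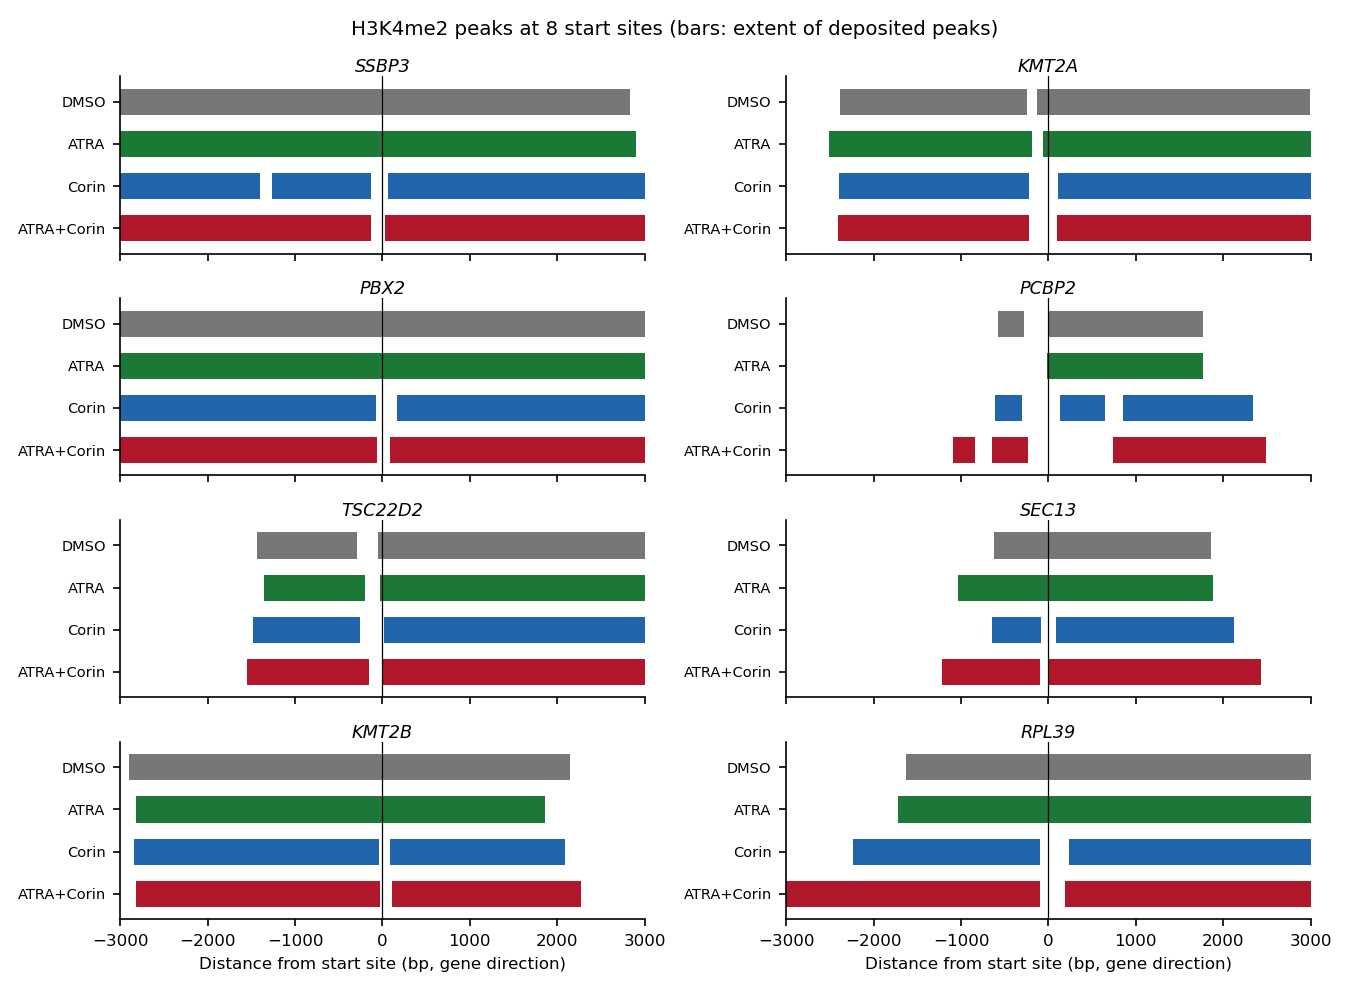
Extent of every deposited H3K4me2 peak within 3000 bp of the start site (vertical line) at 8 genes, 1 row per treatment, in bp along the direction of the gene; bars that reach a panel's side are cut there. At SSBP3, PBX2, KMT2B, SEC13 and RPL39 a single bar crosses the line in the DMSO and ATRA rows. In the Corin rows 2 bars frame the line there. TSC22D2, KMT2A and PCBP2 have a gap or an end just upstream of the line in the DMSO and ATRA rows.

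SSBP3, which encodes a partner of the LIM-domain cofactor LDB1, shows a break (start site at chr1:54406394, reverse strand). Its DMSO peak ran from 3684 bp before to 2827 bp after the start site with a fold enrichment over input of 48.5, and its ATRA peak from 3645 bp before to 2901 bp after, with a fold of 75.0. In the Corin list the cover stopped 127 bp before the start site and resumed 60 bp after it. The ATRA+Corin list had edges at 128 and 33 bp. The gaps were 186 and 160 bp wide. The upstream edges fell within 1 bp of each other, whereas the downstream edges lay at 60 and 33 bp. Over the 947 start sites flanked on both sides in both Corin lists, the upstream edges differed by a median 24 bp.

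PBX2, a homeodomain factor that works with HOX proteins, had a DMSO peak of 7176 bp over its start site (chr6:32190202, reverse strand), with a fold of 59.3, and an ATRA peak with a fold of 82.1. The Corin list broke this peak from 71 bp before to 168 bp after the start site, and the ATRA+Corin list from 59 bp before to 85 bp after. On the upstream side the cover began 3750 bp before the start site in the DMSO list, 5447 bp (Corin) and 5435 bp (ATRA+Corin). The start site of PBX2 was thus bare while the cover on its upstream side reached farther out.

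The other genes under the 8 strongest DMSO peaks differed in the form of the loss. ADCK5, a member of the ADCK family of kinase-like proteins, had the highest DMSO −log10 q of the 972 (339) and a break with gaps of 168 bp (Corin) and 157 bp (ATRA+Corin). The TCFL5 gene, for a basic helix-loop-helix factor, was an edge with gaps of 362 and 190 bp. USP3, a deubiquitinase of histone H2A, had gaps of 142 and 113 bp, and BAHD1, a heterochromatin protein, of 127 and 200 bp; both were breaks. The readthrough gene ST20-MTHFS was a mixed case with gaps of 205 and 459 bp. TSC22D2, a TSC22-domain gene, was an edge: its DMSO peak began 51 bp and its ATRA peak 27 bp before the start site, and the peaks began 15 bp after it in the Corin list and 1 bp after it in the ATRA+Corin list.

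At the 6 start sites with the widest ATRA+Corin gaps the covering DMSO peak had a fold between 4.53 and 8.27, below the median of 19.3 over all 972. ITGAE, which encodes the integrin alpha E chain, had gaps of 876 bp (Corin) and 1071 bp (ATRA+Corin) and a DMSO fold of 4.53. SEPTIN10, a septin that lies head to head with SOWAHC, had gaps of 478 and 1024 bp with a DMSO fold of 5.37. At PCBP2, an RNA-binding protein of poly(C) tracts, the gaps were 435 and 965 bp and the DMSO peak, with a fold of 4.59, began 2 bp before the start site. RBM7, a subunit of the nuclear exosome targeting complex, and ENSG00000255663, an overlapping gene with no symbol, share 1 gap of 362 and 932 bp and count as 1 event. GTSF1, a factor of small RNA silencing, had gaps of 830 and 907 bp. At SEPTIN10, at PCBP2 and in the gap shared by RBM7 and ENSG00000255663, the ATRA+Corin gap was wider by more than 500 bp than the Corin gap. At the narrow end, FRS2, IMMP2L, SEC13 and SPAG5 each had an ATRA+Corin gap of 102 bp, with 179, 166, 179 and 154 bp in the Corin list. Both sets were picked by ATRA+Corin gap width, so the choice partly sets the direction of these differences. Over the 947 start sites flanked on both sides in both Corin lists the median difference was −1 bp.

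The gaps of both Corin lists lay in nearly the same place. Over the 947 start sites the shared part was a median 171 bp (165 to 177), which is 0.764 of the joint length of both gaps. The upstream edges differed by at most 50 bp at 735 start sites (77.6%, 74.9 to 80.2) and the downstream edges at 702 (74.1%, 71.2 to 76.8). The ATRA+Corin gap was wider at 465 and narrower at 474, with a median difference of −1 bp (−5 to 3). Across start sites the widths correlated with Pearson r = 0.648 and Spearman rho = 0.616 (n = 947), as a description: the rule forces both gaps to contain the same base, and the points share their libraries and neighbouring start sites, since the 947 start sites fall in 912 distinct ATRA+Corin gaps.

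**Figure D3:**
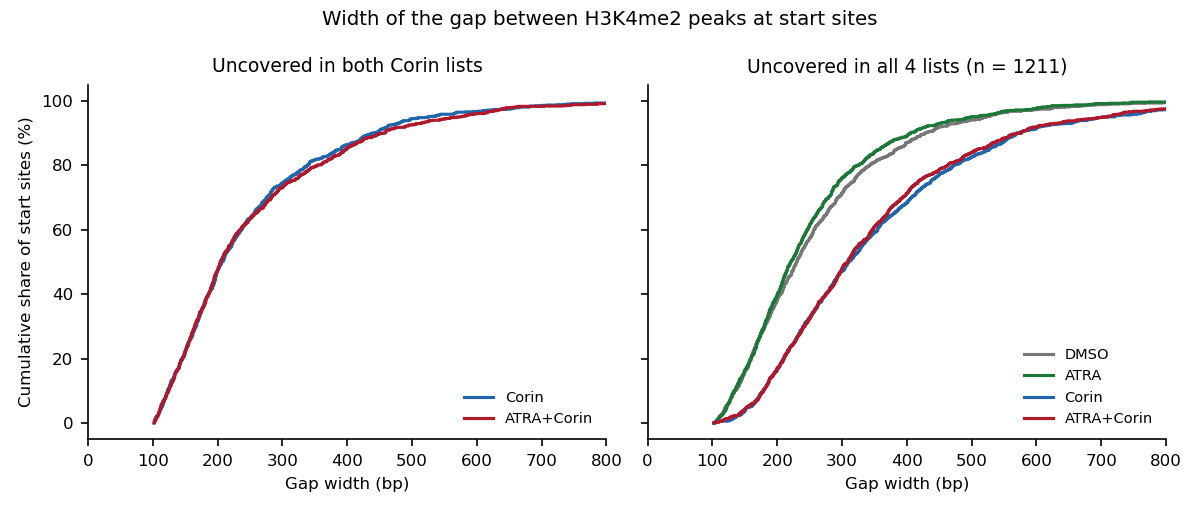
Cumulative share of start sites (%) by gap width (bp, axis cut at 800 bp); left, start sites uncovered in both Corin lists (n = 948 for Corin, n = 954 for ATRA+Corin), right, the 1211 start sites uncovered in all 4 lists with peaks on both sides in each. The Corin and ATRA+Corin lines coincide on the left with medians of 207 and 204.5 bp, and on the right both lie to the right of the DMSO and ATRA lines.

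A group that the rule did not use bears on gap width in the same lists. At 1524 start sites no list had a peak over the start base although each had one within 1 kb, and 1211 of them had peaks on both sides in all 4 lists. Their median gap was 230 bp without drug and 221 bp after ATRA, compared with 310 bp after Corin and 309 bp after both. Start site by start site, the Corin gap was 60 bp wider than the DMSO gap (56 to 67) and was the wider at 971 (80.2%), and the ATRA+Corin gap was 58 bp wider (51 to 65) and was the wider at 934 (77.1%). The ATRA gap was wider than the DMSO gap at 553 (45.7%), with a median difference of −6 bp (−9 to −1). All of these differences are taken against the same DMSO list. Start sites uncovered in the Corin list alone (726) or the ATRA+Corin list alone (791) had narrower gaps, of 170 bp in each.

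The reverse pattern was rare. Of 6418 start sites under a peak in both Corin lists and with DMSO and ATRA peaks within 1 kb, 41 (0.639%) were uncovered in both the DMSO and the ATRA list. Between the lists without Corin, 8.03% of start sites under a DMSO peak were uncovered in the ATRA list with a peak within 1 kb. The same count against the DMSO list gave 24.2% for Corin and 25.1% for ATRA+Corin. The 3 counts share the DMSO list.

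The share depended on the position that was asked about. When the same rule was applied to positions shifted along the gene, 2.79% of eligible positions met it at 250 bp upstream and 1.37% at 250 bp downstream, compared with 11.3% at the start site. At 500 bp the shares were 0.764% upstream and 0.726% downstream, at 1 kb 0.365% and 0.283%, and at 2 kb 0.819% and 0.451%. The reverse pattern ran the other way, with 18.7% at 2 kb upstream and 21.7% at 2 kb downstream, where the Corin lists had peaks over positions that the DMSO and ATRA lists left bare. These shares are counts over positions of the same genes in the same lists, and positions 250 bp away can lie in the same gap.

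Cover of the 972 was lower in the Corin lists within 500 bp of the start site and higher beyond 1 kb. The rule leaves the start base bare in the Corin lists alone, so lower cover beside it follows in part from the choice. At the 6147 start sites covered in all 4 lists, DMSO peaks covered 91.3% of the 500 bases upstream and Corin peaks 89.9%. Downstream both covered 97.7%. That group was in turn chosen for its cover. Of the 500 bases upstream, DMSO peaks covered 83.8% on average and Corin peaks 63.0%, and of the 500 bases downstream 98.7% and 84.7%. Between 1 and 2 kb downstream the order was turned, at 70.6% and 86.5%. At 500 bp upstream of the 972 start sites, 93.7% lay under a DMSO peak, 95.3% under an ATRA peak, 93.8% under a Corin peak and 93.8% under an ATRA+Corin peak. At 100 bp upstream the shares were 68.2%, 68.7%, 24.9% and 25.5%, and at 100 bp downstream 98.9%, 99.3%, 79.8% and 77.4%. The uncovered share was larger on the upstream side in every list, in the DMSO and ATRA lists too. At 1 kb downstream all 4 lists covered between 95.6% and 97.1% of the positions.

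Beyond 1 kb, a range that the rule did not use, the Corin lists covered more. At 2 kb downstream the shares of the 972 positions under a peak were 39.2% (DMSO), 43.8% (ATRA), 64.7% (Corin) and 68.3% (ATRA+Corin), and at 2 kb upstream 19.2%, 22.02%, 30.3% and 31.3%. At 3 kb downstream they were 13.4%, 15.7%, 27.2% and 30.6%. Start sites covered in all 4 lists (6147) showed the same order, with 36.6%, 38.9%, 53.5% and 57.6% at 2 kb downstream and 19.4%, 20.9%, 27.2% and 30.1% at 2 kb upstream. The wider cover is therefore not limited to the genes with a gap. Per gene, the stretch from 1 to 2 kb downstream was covered over a mean 70.6% ± 31.3 of its bases in the DMSO list and 75.0% ± 29.2 in the ATRA list (SD between start sites, n = 972). In the Corin list it was covered over 86.5% ± 23.3 and in the ATRA+Corin list over 88.2% ± 21.9.

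**Figure D4:**
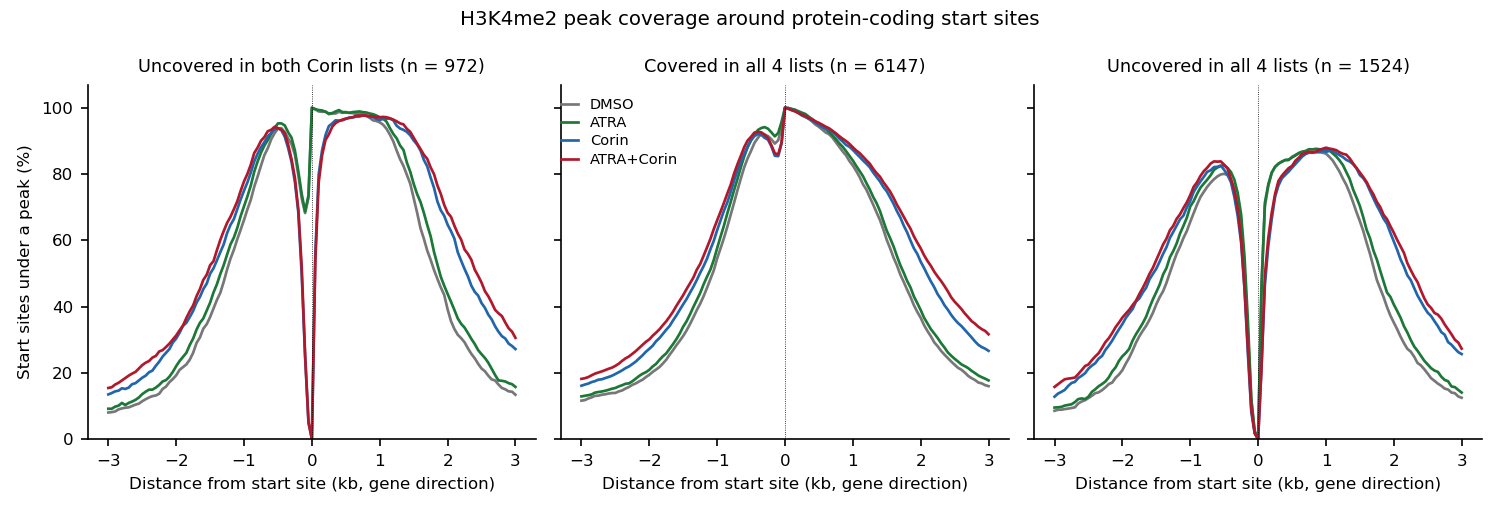
Share of start sites (%) with a peak over each position from 3 kb upstream to 3 kb downstream, in kb along the direction of the gene, 1 line per list; the panels are start sites uncovered in both Corin lists (n = 972), covered in all 4 lists (n = 6147) and uncovered in all 4 lists (n = 1524), and the values at 0 follow from how the groups were chosen. In each panel the Corin and ATRA+Corin lines lie above the DMSO and ATRA lines beyond 2 kb downstream, where the left panel reads 64.7% and 68.3% against 39.2% and 43.8%.

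The flanking peaks were strong peaks of their lists. In the Corin list the upstream peak had a median fold of 12.7, a −log10 q of 42.5 and a width of 1218 bp, and stood at percentile 76.6 of the list by −log10 q. The downstream peak had a fold of 14.8, a −log10 q of 50.4, a width of 2071 bp and stood at percentile 80.6. In the ATRA+Corin list the upstream peak stood at percentile 78.1 with a width of 1280.5 bp, and the downstream peak at percentile 82.1 with a width of 2209 bp. The downstream peak was the wider and the higher-ranked of both by median in each list. Its summit lay 918 bp after the start site (Corin) and 921 bp after it (ATRA+Corin), and the upstream summits at −608 and −635.5 bp, before it.

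In the lists without Corin, the peak over these start sites was strong too, though lower than at start sites covered in all 4 lists. The covering DMSO peak had a median fold of 19.3 (18.6 to 20.1) and a −log10 q of 69.2 (64.5 to 72.8), at percentile 83.7 of the list. At the 6147 start sites covered in all 4 lists the fold was 25.4 (24.96 to 25.95) and the −log10 q 105.6 (103.9 to 108.2), at percentile 90.6. The peaks were about as wide, with medians of 2524 and 2551 bp. In the ATRA list the percentiles were 83.7 and 90.9. By quartile of the DMSO −log10 q among eligible start sites, the share uncovered in both Corin lists was 17.6% (16.0 to 19.3), 13.4%, 8.52% and 5.47% (4.58 to 6.51) from the weakest quartile to the strongest. By quartile of DMSO peak width it stayed between 10.3% and 11.96%. The part of peak strength in the loss of cover was not tested.

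The summit of the DMSO peak seldom lay at these start sites. It was within 150 bp of the start site at 28 of 972 genes (2.88%, 2.00 to 4.13), compared with 875 of 6147 (14.2%, 13.4 to 15.1) where all 4 lists had cover. The share was likewise low, at 3.03% and 3.16%, where the start site was uncovered in the Corin list only or in the ATRA+Corin list only. In the ATRA list the counts for the 972 and the covered start sites were 11 (1.13%) and 676 (11.0%). The DMSO summit fell inside the gap of the Corin list at 3 of 948 start sites and inside that of the ATRA+Corin list at 5 of 954. It lay downstream of the start site in 73.3% of the 972 and in 71.6% of the covered group, at a median of 392.5 and 273 bp. Of the 972 start sites, 616 (63.4%) had a covering DMSO peak that met at least 2 peaks of the Corin list. At 625 (64.3%) it met at least 2 of the ATRA+Corin list. Start sites that share a DMSO peak are counted separately.

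The choice has sharp borders. ATP6AP1, a subunit of the vacuolar proton pump, was included with a Corin peak 1 bp from its start site, and ACAA1, a peroxisomal thiolase, with an ATRA+Corin peak 1 bp away. ASB8 fell outside because 1 base of an ATRA+Corin peak reached the start site, while the nearest Corin peak lay 72 bp away. At the outer limit, CCER2 (nearest peaks at 367 and 531 bp) and KLRF2 (476 and 225 bp) were inside. CD160 and NUPR1 were outside, since the ATRA+Corin list had no peak nearer than 1356 bp to CD160 and the Corin list none nearer than 3445 bp to NUPR1. In all, 983 start sites lay under a DMSO and an ATRA peak and under no peak of either Corin list, and 11 of these failed the 1 kb condition.

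The base composition of these promoters was rich in GC and CpG. Within 500 bp of the start site the median GC content was 64.4% (63.6 to 64.8), compared with 65.1% at start sites covered in all 4 lists and 61.3% over all 19951. The observed over expected CpG ratio was 0.819 (0.809 to 0.829), compared with 0.774 (95% interval 0.771 to 0.779) and 0.725. It was 0.801 and 0.804 at start sites uncovered in the Corin list only or in the ATRA+Corin list only. At those uncovered in all 4 lists it was 0.787. By quartile of that ratio the share of eligible start sites in the group was 5.33% in the lowest quartile and 12.5%, 12.8% and 14.5% in the others. By quartile of GC content it ran between 10.3% and 12.5%. The first exon was of similar length (178 and 188 bp), and the gene bodies were longer (38930.5 and 30283 bp at the median).

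Inside the gap shared by both lists the median GC content was 68.9% (68 to 69.6, n = 947), above the 61.2% of the 250 bases upstream and close to the 70% of the 250 bases downstream. Besides the 4 motifs named above, the TATA box (TATAAA), the E-box (CACGTG), the nuclear receptor element (AGGTCA), the PU.1 site (GAGGAAGT) and the NRF1 and ZNF143 motifs were searched, which makes 10, all on both strands. The ETS and PU.1 motifs share the GGAA core, and matches to the GC box can overlap each other. Per kb of sequence, CCGGAA occurred 2.26 times in the gaps and 0.784 times in the 250 bases on each side, CCAAT 2.91 and 0.762 times, GGGCGG 8.59 and 4.48 times, and the NRF1 motif 0.162 and 0.0148 times. AGGTCA, the recognition element that retinoid receptors share with other nuclear receptors, was sparser in the gaps, at 0.213 and 0.380 per kb. The gaps lie at the start site, and start sites covered in all 4 lists showed a rise towards it too. GGGCGG was found at 39.2% of those in the 50 bases just upstream and at 9.32% from 500 to 451 bases before. For the 972 the shares were 38.0% and 8.13%. CCAAT was found at 13.7% of the covered start sites from 100 to 51 bases before, and at 19.3% of the 972. The part of position was not tested.

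RefSeq promoters of the GRCh38.p14 table (250 bases before to 50 bases after the start) matched 827 of the 972 genes by symbol. CCGGAA was found in 35.8% of them (32.6 to 39.1), in 23.8% of the 4728 matched promoters covered in all 4 lists and in 23.1% of all 15315. The NRF1 motif was found in 3.63%, 1.63% and 1.72%, and the ZNF143 motif in 3.75%, 1.69% and 1.59%. TATAAA was found in 4.23%, 5.35% and 9.64%. Close shares were seen for CACGTG, at 9.92%, 9.98% and 8.88%, and for the site of the myeloid factor PU.1, at 2.54%, 2.83% and 2.51%. In the 50 bases just upstream of the start site CCGGAA was found at 16.7% of the 972 start sites and at 8.996% of those covered in all 4 lists. Start sites uncovered in all 4 lists also held CCGGAA often, in 39.3% of 1253 matched promoters. Those uncovered in the Corin list only or in the ATRA+Corin list only held it in 33.6% and 39.1%. In these 3 groups, in the same order, the NRF1 motif was found in 2.87%, 3.51% and 3.25%. The ZNF143 motif was found in 2.71%, 2.68% and 2.63%. The higher shares are therefore not limited to the 972 start sites.

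Many of these start sites face another gene. A start site of the opposite strand lay within 1 kb upstream at 356 of the 972 (36.6%, 33.7 to 39.7), at 25.1% (24.1 to 26.2) of start sites covered in all 4 lists and at 39.8% of those uncovered in all 4. A protein-coding partner was present at 18.9%, 12.8% and 25.1%. Among the 356, the partner itself belonged to the group at 35. Both start sites lay in 1 gap at 208 of 351 pairs in the Corin list (59.3%) and at 202 of 353 in the ATRA+Corin list (57.2%). Gaps with a facing start site were a little wider, at 224 bp (209 to 241) compared with 198 bp (193 to 209) in the Corin list and 221 bp compared with 200 bp in the ATRA+Corin list.

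The genes were spread over the chromosomes and over many functions. The share of eligible start sites ran from 4.60% on chromosome 21 (4 of 87) to 15.4% on chromosome 4 (40 of 259). Counts below are given for 20 gene lists against the 11.3% of all eligible start sites; several lists hold few eligible genes, neighbouring genes can share a gap, and no enrichment was tested. The lists were drawn up with earlier results of these data known. The interval lay wholly above 11.3% only for H3K4 methylation genes, cytoplasmic and mitochondrial ribosomal proteins, translation initiation factors and Mediator. It included 11.3% for all the other lists, also where the share was higher. The intervals were not adjusted for the number of lists.

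Among writers and erasers of H3K4 methylation, 5 of 11 eligible start sites were uncovered in both Corin lists (45.5%, 21.3 to 72.0), and 5 were covered in all 4 lists. The 5 were KMT2A and KMT2B, methyltransferases of promoters, KMT2C, a methyltransferase of enhancers, and ASH2L and DPY30, subunits that these complexes share. The KMT2B start site (chr19:35718003, forward strand) lay under a DMSO peak with a fold of 45.9 and an ATRA peak with a fold of 56.0, and both were broken in the Corin lists. Its gaps measured 127 and 138 bp, with edges 39 bp before and 89 bp after the start site in the Corin list and at 35 and 104 bp with both compounds. At KMT2A (chr11:118436492, forward strand) the DMSO list already had a gap, from 243 to 131 bp before the start site, and the ATRA list a gap from 188 to 61 bp. In the Corin and ATRA+Corin lists the gap began 220 and 221 bp before the start site, between those 2 positions, and ended 113 and 103 bp past it. The gaps of KMT2C were 302 and 209 bp, of ASH2L 452 and 136 bp, and of DPY30 109 and 134 bp.

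The targets of Corin and their partners gave 3 of 13 (23.1%, 8.18 to 50.3). The scaffold genes RCOR1 (gaps of 290 and 292 bp) and RCOR3 (222 and 120 bp) and the co-repressor CTBP1 (463 and 460 bp) were uncovered in both Corin lists. KDM1A, which encodes LSD1, and HDAC2 were covered in all 4 lists. HDAC1 was uncovered in the ATRA+Corin list alone and EP300, which encodes the acetyltransferase p300, in the Corin list alone. At CTBP1 most of the gap lay downstream of the start site, with edges 50 bp before and 414 bp after it in the Corin list.

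No retinoid or myeloid gene of the lists belonged to the group. Of 10 eligible genes of retinoid receptors and response, 0 were uncovered in both Corin lists and 7 were covered in all 4, among them RARG, CYP26A1, DHRS3 and STRA6. A count of 0 of 10 allows a share of up to 30% when 3 counts of the total are taken as its limit, and the Wilson interval ends at 27.8%. Of 24 eligible myeloid regulators and differentiation genes, 0 were in the group and 21 were covered in all 4 lists, among them SPI1, CEBPB, ITGAM, CSF1R, CD86 and CYBB. For 0 of 24 the same limits are 12.5% and 13.8%, both above the 11.3% of all eligible start sites. RARA, RARB and CEBPA lacked cover in at least 1 list: RARB and CEBPA in the ATRA+Corin list alone, and RARA in the ATRA and Corin lists.

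Genes of protein synthesis made up several of the larger shares. Cytoplasmic ribosomal protein genes gave 6 of 12 (50%, 25.4 to 74.6), namely RPS2, RPL39, RPL4, RPL10, RPS26 and RPS10. Of the 84 such genes, 53 were uncovered in all 4 lists, and these could not enter the count. RPL39 was a break, with edges 102 bp before and 235 bp after its start site in the Corin list and at 93 and 192 bp with both compounds. RPS2 was an edge with gaps of 268 and 191 bp, and shares its DMSO peak with NDUFB10, a complex I gene of the same group with gaps of 117 and 142 bp. RPL4 had gaps of 448 and 501 bp and RPL10 of 369 and 271 bp.

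Mitochondrial ribosomal protein genes gave 8 of 37 (21.6%, 11.4 to 37.2), with MRPS15 (gaps of 152 and 136 bp) and MRPL41 (215 and 249 bp) under the strongest DMSO peaks. Translation initiation factors gave 6 of 23 (26.1%, 12.5 to 46.5), among them EIF4G1, the scaffold of the cap-binding complex, with gaps of 260 and 244 bp, and EIF4E3, with gaps of 175 and 143 bp. Aminoacyl-tRNA synthetases gave 5 of 22 (22.7%, 10.1 to 43.4). QARS1 had gaps of 105 and 120 bp and GARS1 of 196 and 207 bp.

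Mediator, which links activators to RNA polymerase II, gave 4 of 13 (30.8%, 12.7 to 57.6), with MED31 at gaps of 121 and 126 bp and CDK19 at 216 and 397 bp. RNA polymerase II and general transcription factor subunits gave 4 of 22 (18.2%, 7.31 to 38.5). TAF5L had gaps of 531 bp (Corin) and 121 bp (ATRA+Corin), and GTF2H1 had 461 and 446 bp. Nuclear pore genes gave 4 of 18 (22.2%), with NUP98 at 481 and 439 bp and SEC13, which also builds vesicle coats, at 179 and 102 bp. Ubiquitin-conjugating enzymes gave 6 of 27 (22.2%, 10.6 to 40.8), with UBE2J2 at 146 and 169 bp and UBE2V1 at 113 and 105 bp.

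The smaller counts were 3 of 12 proteasome genes (PSMB1, with gaps of 191 and 234 bp, PSMD5 and PSMD7), 3 of 18 spliceosome genes (PRPF31, with 103 and 133 bp, PRPF18 and SRSF6) and 3 of 21 genes of complex I. Chaperonin and heat shock genes gave 2 of 8 (CCT4, at 233 bp in both lists, and CCT2) and autophagy genes 2 of 15 (WIPI2, at 132 bp in both lists, and ATG4A). Shares below the background were found for solute carriers, with 11 of 157 (7.01%, 3.96 to 12.1), and for DNA replication factors, with 2 of 31 (6.45%, 1.79 to 20.7), but both intervals include 11.3%. The solute carriers under the strongest DMSO peaks were SLC37A4, the glucose-6-phosphate transporter (gaps of 256 and 154 bp), and SLC15A4, a peptide and histidine transporter (304 and 236 bp). The 2 replication factors were RPA1 (162 and 155 bp) and POLA1 (212 and 228 bp). ZNF-named zinc finger genes, the largest list, gave 24 of 235 (10.2%, 6.96 to 14.7), with ZNF248 at 168 and 172 bp and ZNF775 at 211 and 203 bp.

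**Figure D5:**
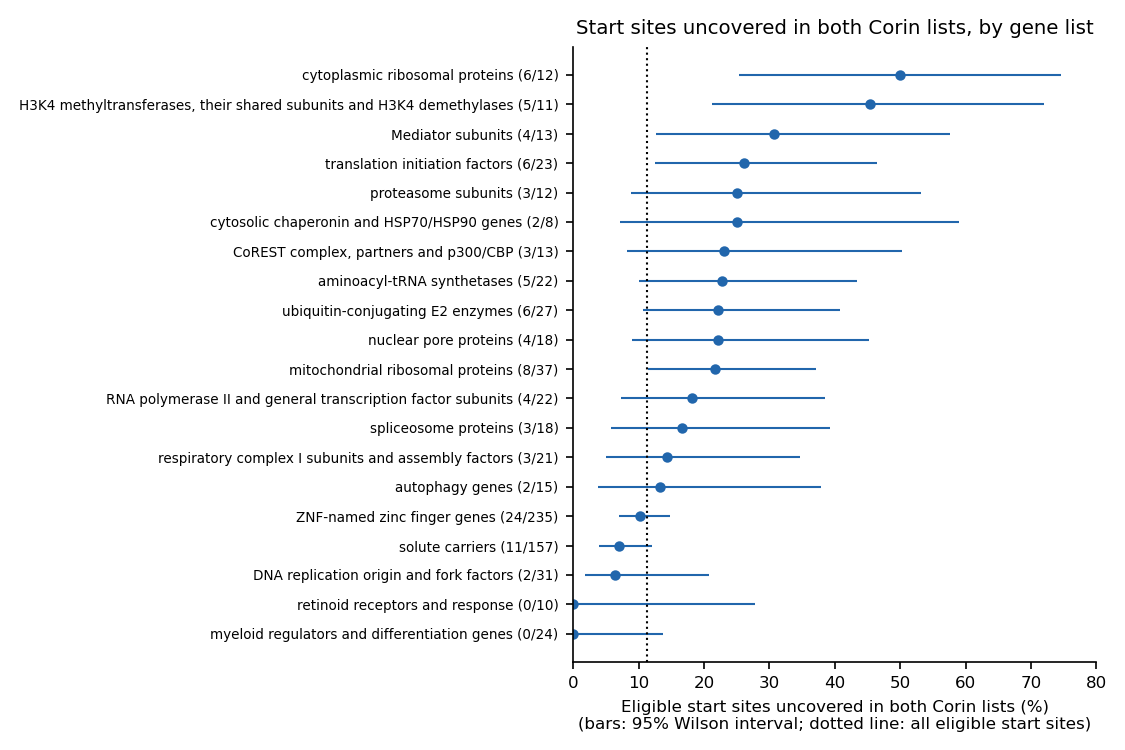
Share of eligible start sites uncovered in both Corin lists (%) for the 20 gene lists; points are the shares, bars their 95% Wilson intervals (counting error only), numbers in brackets are uncovered start sites over eligible ones, and the dotted line is the 11.3% of all eligible start sites. Cytoplasmic ribosomal proteins (6 of 12) and H3K4 methylation genes (5 of 11) lie highest, and retinoid and myeloid genes are at 0.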

How the data were processed

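The series holds 8 H3K4me2 ChIP-seq libraries and 4 inputs, grouped by their titles. Each treatment has 1 deposited list of peaks, whose deposited name describes an optimal set reproducible by overlap, pooled over its libraries against its input. The submitters' processing notes name Trimmomatic, Bowtie2, Picard, MACS2 and the build hg38, with no role or version; settings and thresholds are not given in the sources used here. Each peak carries the authors' score, the authors' fold enrichment over input (a ratio at the summit), the authors' −log10 q, and deposited positions and summit. The deposited score was not analysed, and fold and −log10 q describe and rank peaks within a list only.

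Start sites came from GENCODE release 44, 1 canonical transcript per protein-coding gene (19951). Covered means that the start base lay inside a peak; distances and gaps were taken to the nearest peak edge on each side within 1 kb, in gene direction. Positions are counted from 1. A head-to-head partner is any opposite-strand start site of a protein-coding or lncRNA transcript within 1 kb upstream. GC content and motifs came from the GRCh38 sequence and the RefSeq promoter table. The search was run on a copy of the DMSO list with gaps cut into it, and all 200 planted gaps were recovered. That checks the lookup of gaps in a list, and not the signal, the depth or the calling of peaks. No test was run, since each treatment has 1 pooled list. Python 3.11.15 with numpy 2.4.6, pandas 2.3.3, scipy 1.17.1 and matplotlib 3.10.9 was used.

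The members and gene lists were chosen with earlier results of these data known. Genes named are the 8 with the highest DMSO −log10 q, the 6 widest and 4 narrowest ATRA+Corin gaps, up to 2 per gene list by DMSO −log10 q, and those nearest each border; the remaining names of the H3K4, CoREST, retinoid, myeloid, ribosomal protein, proteasome and spliceosome lists were chosen after their values were seen. A few items that these choices reach are not reported here. The processing was varied by a minimum −log10 q of 5, equal list lengths, peaks within 200 bp joined, 50 bp kept clear of Corin peaks, windows of 500 bp and 2 kb, and all basic start sites.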

Additional observations from a re-analysis of the deposited data

How the results depend on the processing

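The lists are pooled, so no replicate could be left out, and depth per library, which sets how weak a signal still joins 2 peaks, is not shown by them; the part of depth in these gaps was not tested. No paired analysis was possible because the replicate numbers of the labels are not carried by the pooled lists. With a −log10 q of at least 5 the count was 974 and with equal numbers of peaks 975, compared with 972, and gap medians stayed between 207 and 209 bp; a −log10 q of at least 5 lowered the share flanked on both sides in the Corin list to 95.4%. Joining peaks within 200 bp left 744 start sites (7.38% of eligible) with gaps of 302 bp (Corin) and 301 bp (ATRA+Corin), since narrower gaps are closed by construction. Requiring 50 bp clear of any Corin-list peak left 245 (2.84%), with gaps of 257.5 and 265 bp, 94.7% and 96.3% flanked on both sides, and 16 start sites with the reverse pattern. With a window of 500 bp the shares flanked on both sides were 94.5% and 94.4%. All basic protein-coding start sites gave 2346 (9.17%), and 170 with the reverse pattern, with several start sites per gene. An alternative chosen after seeing the data required DMSO and ATRA peaks to reach 250 bp past the start site on both sides: it left 537 (8.20%), with gaps of 171.5 and 172 bp, and 99.1% and 99.6% flanked on both sides. Where no construction is named, the cause was not tested. The other 33 recomputed values stayed within the interval of the reported one or within 1.5 times its count.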
